A study of Rattus norvegicus with 56 samples.

Results

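L-dopa was compared with saline treatment in the dorsal striatum of lesioned rats that had all been conditioned with pramipexole, a comparison of 7 rats (numbers 1 to 7) with 7 (numbers 15 to 21) out of the 56 male Sprague Dawley (Crl:OFA) rats of the study. The 14 arrays were chosen by their labels alone, and 18595 of the 31042 probe sets that are no control passed a mean log2 signal of 5 over them and were tested. All 14 rats carried the study's lesion, a loss of nigral neurons on both sides brought about by an adeno-associated virus that overproduces alpha-synuclein, the protein that aggregates in Parkinson's disease. From 5 weeks after the lesion, 1 group was injected under the skin with 50 mg/kg of the methyl ester of L-dopa together with benserazide every day for 3 weeks, and the other with saline. All 14 rats then went through place conditioning, in which 40 min sessions in 1 chamber followed a dose of 2 mg/kg of pramipexole, an agonist of D2 and D3 receptors. Tissue was taken right after the closing test, 24 or 48 hours after the last dose of pramipexole. The labels do not say which rat had which interval or how complete each lesion was.

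Dopamine from the nigra acts on the medium spiny neurons, the projection neurons that make up most of the striatum. The neurons of the direct pathway carry D1 receptors and make dynorphin (Pdyn) and substance P (Tac1), and those of the indirect pathway carry D2 receptors and make enkephalin (Penk). In the dopamine-depleted striatum L-dopa is known to raise FosB and prodynorphin, changes that accompany dyskinesia, and pramipexole stimulates D2-type receptors directly, without the terminals that turn L-dopa into dopamine.

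Markers of striatal neurons had high signals on all 14 arrays. Ppp1r1b (DARPP-32, the phosphoprotein of medium spiny neurons) lay between 9.98 and 10.62 on the log2 signal scale, with a median of 10.21, and Rgs9, a regulator of D2 signalling, between 10.00 and 10.80. Of the markers that define the tissue and its other cells, Th and Slc6a3 (the dopamine transporter), Alas2, Kl and Slc22a6 fell below the filter. Median signals of the 14 arrays lay between 5.67 and 5.81. Rat 2, an L-dopa rat, stood apart: its median correlation with the other 13 arrays across probe sets was 0.963, against 0.978 to 0.984 for the others, and 413 of its probe sets lay more than 1 log2 unit from the group median, against 33 to 118. Differences are therefore also given without rat 2, on the same probe sets. The gap between 3' and 5' control signals (beta-actin, GAPDH and hexokinase), which grows as RNA breaks down, averaged 0.88 ± 0.07 (SD, n = 7) in L-dopa and 0.80 ± 0.08 (SD, n = 7) in saline rats, with overlapping ranges. The difference of 0.08 had p = 0.0775 in a two-sided exact permutation test (0.155 after adjustment over 4 such measures), and 0.128 without rat 2. Beta-actin alone differed by 0.13 (exact p = 0.0431, and 0.155 after the same adjustment). A fit with the gap averaged over the control genes as a covariate called 0 probe sets.

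No probe set differed between L-dopa and saline rats at a Benjamini-Hochberg adjusted p under 0.05 in limma, the rule for a call here (0% of those tested). The smallest adjusted p was 0.796, and 0.999 without rat 2. At an unadjusted p under 0.05 there were 928 probe sets, 4.99% of those tested, 520 (2.8%) with the higher mean in L-dopa rats and 408 (2.19%) with the lower. Without rat 2 there were 797 (4.29%), 449 (2.41%) higher and 348 (1.87%) lower. Of all probe sets, 51.1% had a positive difference. The 95% interval of a difference reached 0.19 to either side at the median, and less than 0.5 in 98.0% of probe sets. The sizes of the differences had a median of 0.061, and of 0.060 without rat 2.

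The dopamine receptor genes overlapped between the groups. Drd1, the receptor of the direct pathway, ranged from 10.53 over a median of 10.79 to 11.15 in L-dopa rats and from 10.51 over 10.83 to 11.06 in saline rats, and the groups overlapped over nearly their whole range. Its difference was -0.03 ± 0.13 (SE, limma adjusted p = 0.997), with a 95% interval from -0.29 to 0.23, and -0.001 ± 0.133 without rat 2. Its other probe set, of lower signal, gave -0.14 ± 0.16, and -0.12 without rat 2. Drd2, the indirect pathway's receptor for pramipexole and for dopamine made from L-dopa, ranged from 9.63 over 9.76 to 10.22 with L-dopa. With saline it ranged from 9.36 over 9.65 to 10.02. That difference was 0.15 ± 0.14 (adjusted p = 0.995), and 0.14 ± 0.15 without rat 2. Drd3, the other target of pramipexole, had a mean signal of 3.58 and was not tested.

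The peptide precursor genes by which dopamine tone on each pathway is usually read also overlapped. Penk lay between 12.00 and 12.47 in L-dopa rats (median 12.31) and between 12.21 and 12.48 in saline rats (median 12.27), a difference of -0.004 ± 0.083 (limma adjusted p = 0.998), or -0.02 ± 0.09 without rat 2. Pdyn lay between 9.54 and 10.15 (median 9.74) with L-dopa and between 9.69 and 10.48 (median 9.99) with saline. Its difference was -0.18 ± 0.16 (adjusted p = 0.995), with 5 of the 7 L-dopa rats below the saline mean, and its other probe set gave -0.32. Without rat 2 it was -0.15 ± 0.16. Tac1 lay between 9.80 and 10.61 (median 10.25) with L-dopa and between 9.89 and 10.59 (median 10.32) with saline, a difference of -0.15 ± 0.17 (adjusted p = 0.995, -0.12 ± 0.18 without rat 2). Fosb, whose stable product builds up under repeated dopaminergic drugs, had a low signal of 4.78 to 5.20 (median 5.03) with L-dopa and of 4.67 to 5.66 (median 5.33) with saline. The L-dopa rats lay within the saline range, 5 of the 7 saline rats were above all of them, and the difference was -0.23 ± 0.15 with rat 2 (adjusted p = 0.995) and -0.23 ± 0.16 without it.

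**Figure D1:**
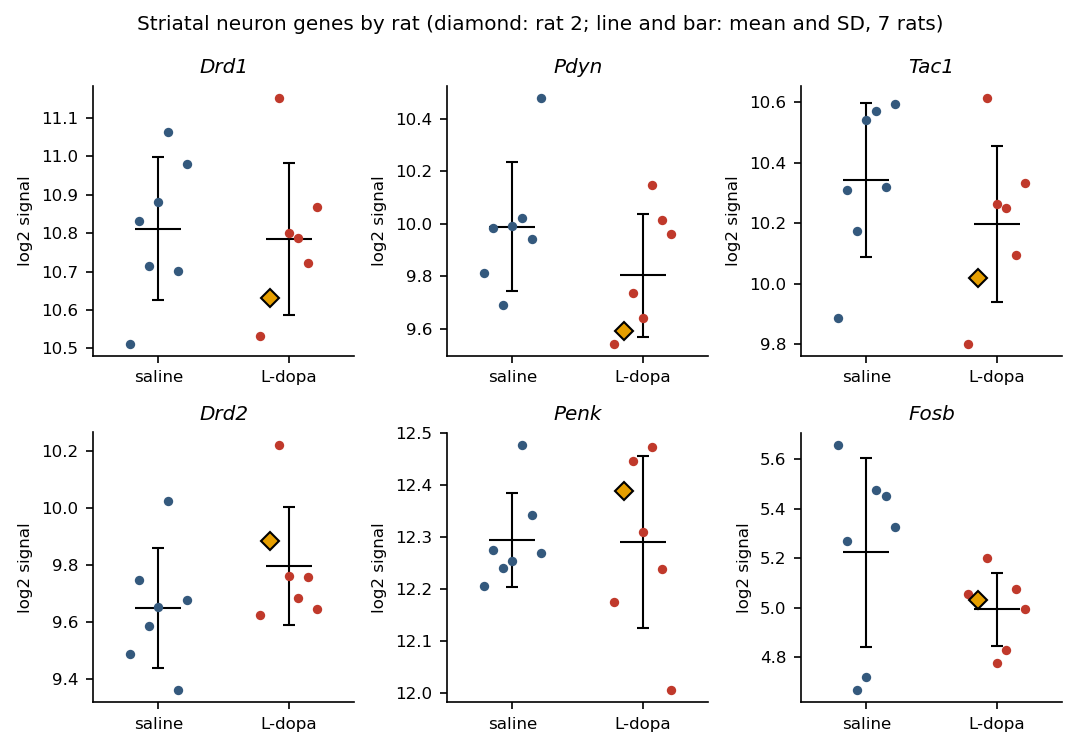
Log2 signals of 6 striatal neuron genes in the 14 pramipexole-conditioned lesioned rats, saline on the left and L-dopa on the right, with 1 point per rat, the group mean as a line and the SD as a bar. The groups overlap for all 6 genes, and rat 2 (diamond) lies within the range of the other rats.

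Whole lists of striatal genes also divided between higher and lower. The lists were drawn up from textbook knowledge, and each is given by the number of its tested genes with a positive difference (L-dopa minus saline) and by its median difference, to be read beside all 10157 genes, of which 53.0% were positive with a median of 0.006 (53.4% without rat 2). No gene of any of the 33 lists was called. Among D1 neuron markers 4 of 9 were positive (median -0.01), among D2 neuron markers 1 of 4 (median -0.02) and among genes shared by both kinds of neuron 12 of 26 (median -0.003). Without rat 2 these medians were 0.01, 0.02 and -0.01. Of these, Bcl11b, a transcription factor that medium spiny neurons need to mature, had 0.12 ± 0.07, and Dclk3, a striatal kinase gene, had -0.20 ± 0.12 (adjusted p = 0.995 each). Bcl11b's other probe sets, of lower signal, gave -0.03 and 0.05. Dopamine signalling genes divided evenly, with 17 of 34 positive. Rgs4, a brake on signalling by G protein-coupled receptors, came nearest to the threshold in that list at -0.14 ± 0.07 (unadjusted p = 0.0513, adjusted p = 0.995), with all 7 L-dopa rats below the saline mean.

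Activity-dependent and dyskinesia-linked genes gave no call either. Immediate early genes were positive in 15 of 31 (median -0.01, and -0.03 without rat 2), with Egr4 at -0.24 ± 0.15 and Ier2 at -0.20 ± 0.13. The dyskinesia list was positive in 7 of 22 (median -0.03), and in 4 of 22 without rat 2 (median -0.04), and 19 of its genes also stand in other lists. Glutamate receptor and postsynaptic genes were positive in 10 of 33 (median -0.03), where Grin2a, an NMDA receptor subunit, had 0.16 ± 0.10. GABA signalling genes were positive in 5 of 15 (median -0.04), and Gabrg1, a GABA-A receptor subunit, had -0.22 ± 0.11. Oxidative phosphorylation genes were positive in 23 of 68 (median -0.02), and clock genes in 9 of 20 (median -0.04), with Cry1, a repressor of the clock, at -0.23 ± 0.11 with rat 2 and -0.15 without it. For synaptic vesicle genes (12 of 28 positive), Rab3c, a small GTPase of synaptic vesicles, had the smallest p of the list, at 0.30 ± 0.12 (unadjusted p = 0.0214, adjusted p = 0.987).

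The genes of smallest unadjusted p are given as values, since none was called. On the higher side Rfc5, a subunit of the clamp loader of DNA replication, ranged from 7.07 over 7.30 to 7.33 with L-dopa and from 6.68 over 6.81 to 7.12 with saline. Its 7 L-dopa rats were all above the saline mean and 6 of them above every saline rat, and the difference was 0.39 ± 0.08 (adjusted p = 0.796), with or without rat 2. The gene's other probe set showed a difference of only 0.005. Eif2a, a translation initiation factor, ranged from 8.01 over 8.06 to 8.15 with L-dopa and from 7.81 over 7.93 to 7.96 with saline, so that the groups did not overlap, and differed by 0.16 ± 0.04 (adjusted p = 0.987). The adjusted p without rat 2 was 0.999 for every gene of this paragraph and the next. The other 10 on this side differed by 0.18 to 0.36. They include Map3k3, a kinase of the MAP kinase cascades, and Cops6, a subunit of the COP9 signalosome. Some have other probe sets of higher signal with smaller differences, 0.08 for Map3k3, 0.12 for Pi4kb and 0.03 for Tm9sf4. Of the 10, C1h19orf12 had its highest value in rat 2 (7.53, the other L-dopa rats 6.72 to 7.00). Its difference of 0.34 ± 0.10 was 0.24 ± 0.08 without rat 2.

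On the lower side Ltbp4, which binds latent TGF-beta in the extracellular matrix, ranged from 5.29 over 5.77 to 5.94 with L-dopa and from 5.96 over 6.12 to 6.39 with saline. The groups did not overlap, and the difference was -0.41 ± 0.09 (adjusted p = 0.937, -0.41 ± 0.10 without rat 2). Pura, a nucleic acid binding protein that neurons need to develop, ranged from 7.11 over 7.21 to 7.45 with L-dopa and from 7.47 over 7.57 to 7.75 with saline, again with no overlap and a difference of -0.36 ± 0.09 (adjusted p = 0.946). The next smallest p belonged to Ibtk (-0.39 ± 0.09) and Apeg3 (-0.35 ± 0.08). Gja1, the gap junction protein connexin 43 of astrocytes, had -0.43 ± 0.13 on a probe set of low signal and -0.01 on another of high signal. Aox1, aldehyde oxidase, had the widest difference of these 24 genes at -1.05 ± 0.31 (-0.88 without rat 2), with L-dopa rats spread from 3.68 over 5.03 to 6.26 and saline rats from 5.61 over 5.98 to 6.44. Here 5 of the 7 L-dopa rats were below every saline rat and the other 2 lay among them. The rest (Eif3j, Bag4, Syne1, Nfyb, C19h19orf53 and Pdha1) differed by -0.24 to -0.42. Several have other probe sets of higher signal with smaller differences, -0.02 for Eif3j, -0.03 for Syne1, -0.08 for Nfyb, -0.06 for C19h19orf53 and -0.10 for Pdha1. Of the genes above, Apeg3 had other probe sets of higher signal at -0.04, -0.13 and -0.49, the last a larger difference.

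**Figure D2:**
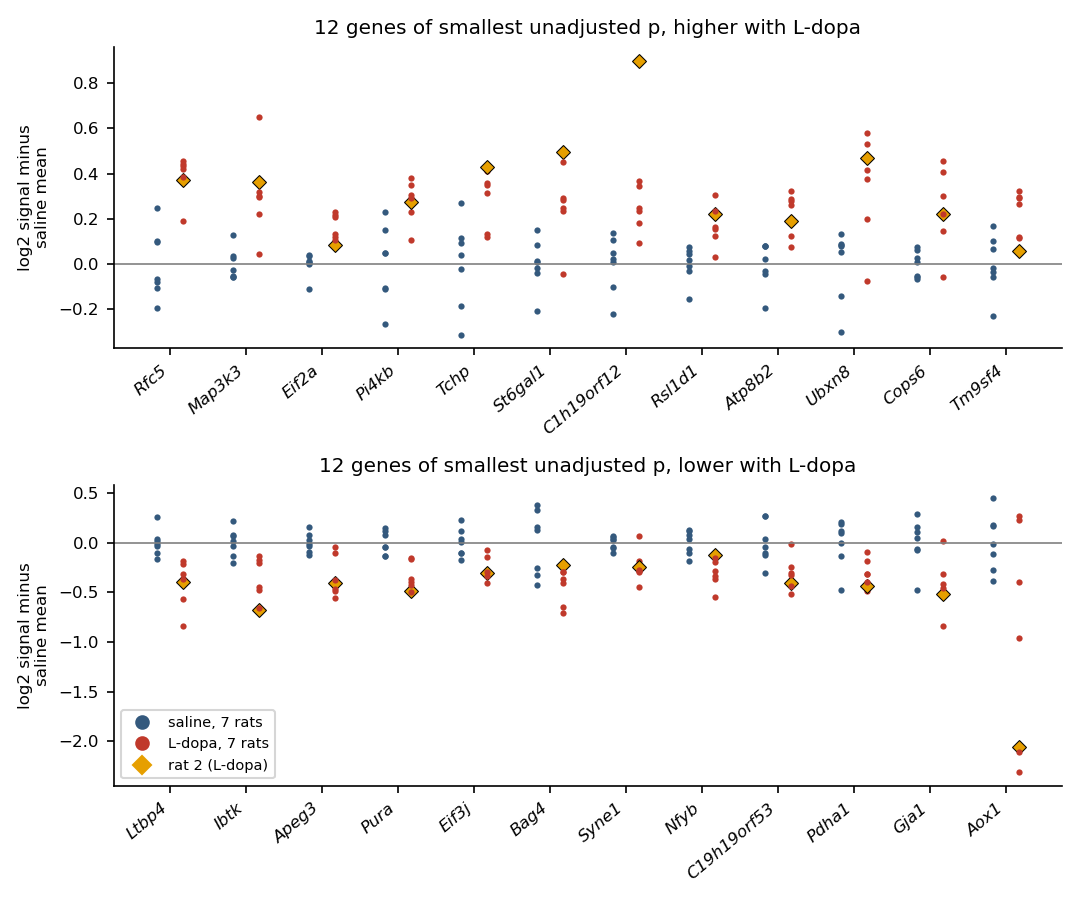
Log2 signal minus the saline mean in each of the 14 rats for the 12 genes of smallest unadjusted p with the higher mean in L-dopa rats (top) and the 12 with the lower mean (bottom). None was called, since the adjusted p was 0.796 or more for every gene shown, and rat 2 (diamond) lies among its group for most of them, with C1h19orf12 as the clearest exception.

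Groups without overlap were few. They were found for 10 probe sets, 0.0538% of those tested, 4 (0.0215%) with all L-dopa rats above and 6 (0.0323%) with all below. Besides Eif2a, Ltbp4 and Pura, they hold Mcee, an enzyme of propionate breakdown, with all L-dopa rats above (0.14 ± 0.06), and Ube2e3, a ubiquitin-conjugating enzyme (-0.13 ± 0.06), Rbak (-0.22 ± 0.08) and Klhl23 (-0.26 ± 0.08) with all below. The remaining 3 probe sets carry no gene symbol. Mcee, Ube2e3, Rbak and Klhl23 are named for this pattern after their values were seen. By size, 84 probe sets (0.452%) differed by more than 0.5 and 7 (0.0376%) by more than 1. Of the 84, 61 were higher with L-dopa, and rat 2 was the highest of the 14 rats in 40. Without rat 2, 42 of the 84 still differed by more than 0.5, of which 22 were higher and 20 lower with L-dopa.

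The same treatment contrast in the lesioned rats conditioned with saline in place of pramipexole (7 L-dopa and 7 saline rats, none of them among the 14) served as the nearest comparison. It had 2 calls in limma, 0.0108% of probe sets, 1 in each direction (0.00538%). The number rested on single rats: it was 0 without rat 8, 24, 25, 26 or 28, 1 without rat 9 or 11, 4 without rat 22 and 7 without rat 23. At an unadjusted p under 0.05 there were 2297 probe sets (12.4%), 1258 (6.77%) higher and 1039 (5.59%) lower, and 52.6% of all differences were positive. By size, 141 (0.758%) differed by more than 0.5 and 5 (0.0269%) by more than 1. Across probe sets the differences of both comparisons had a Pearson correlation of 0.03 (0.001 without rat 2; 18595 probe sets, which are not independent), and 53.2% had the same sign. The test of the difference between the contrasts called 0 probe sets in limma (smallest adjusted p = 0.323), with 1213 (6.52%) at an unadjusted p under 0.05, 534 (2.87%) positive and 679 (3.65%) negative. Without rat 2 the smallest adjusted p was 0.348, with 1242 (6.68%), 587 (3.16%) and 655 (3.52%). Nothing is therefore shown to be particular to pramipexole-conditioned rats.

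The gene nearest to such a difference was Peli2, a ubiquitin ligase of Toll-like receptor signalling. It ranged from 5.66 over 6.02 to 6.21 with L-dopa and from 5.67 over 5.89 to 6.02 with saline in pramipexole-conditioned rats, a difference of 0.08 ± 0.07 (adjusted p = 0.995). In saline-conditioned rats it ranged from 5.48 over 5.67 to 5.80 and from 5.90 over 6.13 to 6.31, without overlap, and fell by 0.46 (SE 0.07, adjusted p = 0.0188), 1 of the calls that single rats end. The difference of 0.54 between the contrasts had an adjusted p of 0.323, and of 0.0443 when rat 5 was left out, the only call that leaving out any of the 28 rats gave. Peli2's other probe set, of higher signal, showed 0.03 in pramipexole-conditioned rats, a value that does not bear on the fall in saline-conditioned rats. Spire1, an actin nucleation factor, had -0.19 and 0.38 in pramipexole- and saline-conditioned rats (adjusted p = 0.424 for the difference). Spire1's probe set of highest mean showed 0.07 in pramipexole-conditioned rats, the opposite direction, while others of the gene showed -0.12 and -0.07. Mfhas1, another gene of Toll-like receptor signalling, had -0.48 and 0.70 (adjusted p = 0.607). In pramipexole-conditioned rats its probe set of highest mean showed 0.07, the opposite direction, and another showed -0.47.

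Lists of striatal neurons lay nearer to 0 in pramipexole-conditioned than in saline-conditioned rats. D1 markers had a median of -0.01 against -0.21, D2 markers -0.02 against -0.18, and shared medium spiny neuron genes -0.003 with 12 of 26 positive against -0.12 with 2 of 26. In saline-conditioned rats 49.7% of all genes were positive. No gene of these lists, and no probe set at all, was called in the test of the difference. In that test 0 of their genes had an unadjusted p under 0.05, as did 6.52% of all probe sets. Markers of the cerebral cortex, which borders the dissected region, went the other way: their median was -0.06 with 7 of 24 positive in pramipexole-conditioned rats, and 0.32 with 19 of 24 positive in saline-conditioned rats. Of these 24, 3 had an unadjusted p under 0.05 in the test of the difference. In whole tissue, fewer cells of a type and less RNA per cell cannot be told apart, and the part of the cortex markers in the striatal values was not tested.

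**Figure D3:**
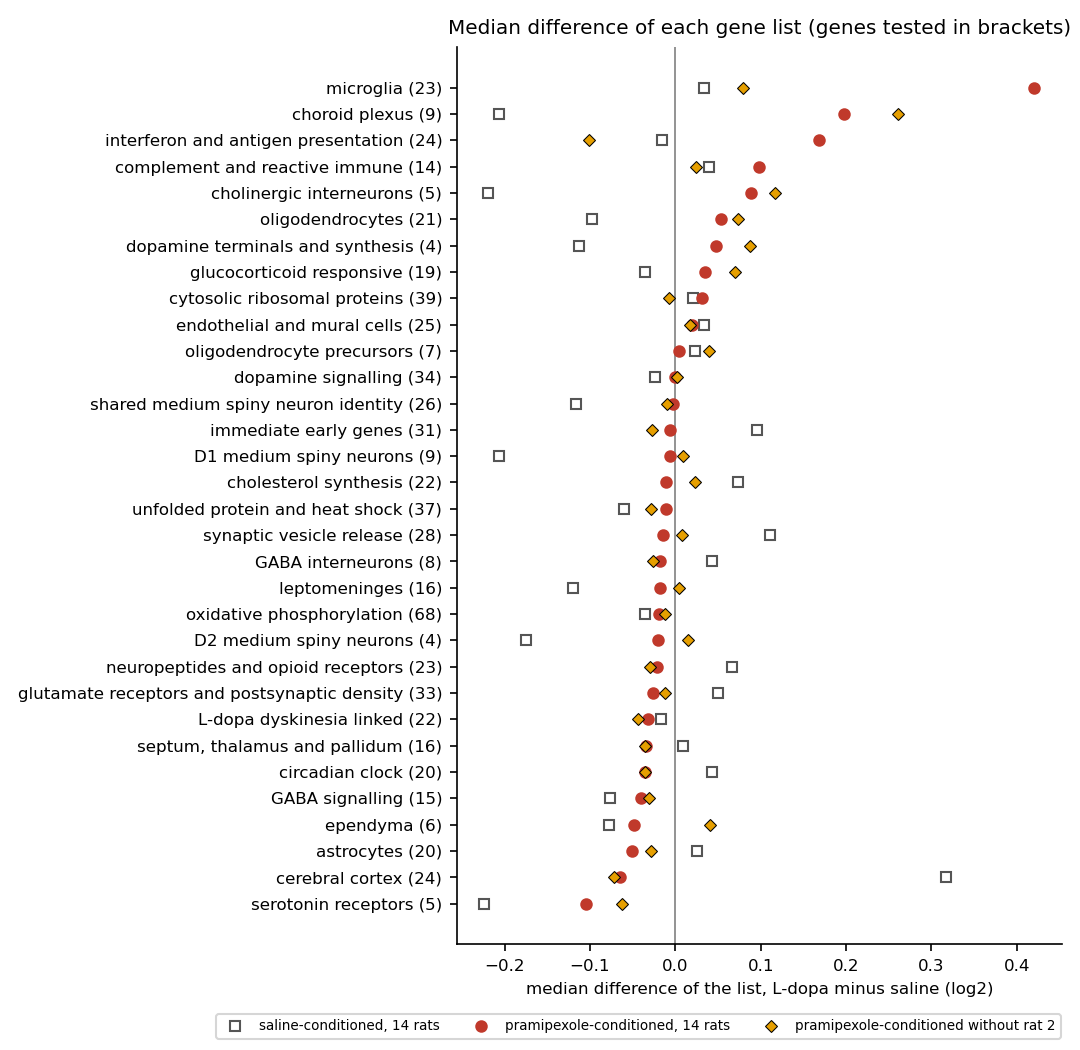
Median difference (L-dopa minus saline, log2) of 32 gene lists with more than 1 tested gene, in pramipexole-conditioned rats (circles), in the same rats without rat 2 (diamonds) and in saline-conditioned rats (squares). The microglia and interferon lists lie at 0.42 and 0.17 with rat 2 and at 0.08 and -0.10 without it, and the striatal lists lie near 0 in pramipexole-conditioned rats.

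The medians of the microglia and interferon lists changed with rat 2, the first in size and the second in sign. Microglial markers were positive in 23 of 23 (median 0.42), and without rat 2 in 17 of 23 (median 0.08). Genes of the interferon response and antigen presentation were positive in 19 of 24 (median 0.17), and without rat 2 in 4 of 24 (median -0.10). Of these 24, RT1-Ba and Mx1 passed the filter only through rat 2, so the count with rat 2 is tilted by the filter. For cytosolic ribosomal protein genes the counts with and without rat 2 were 32 of 39 (median 0.03) and 14 of 39 (median -0.01). Csf1r, the growth factor receptor of microglia, ranged from 7.48 over 7.67 to 10.00 with L-dopa and from 7.30 over 7.56 to 7.81 with saline, the highest value being that of rat 2 and the next 7.86. Its difference was 0.48 ± 0.23 (adjusted p = 0.995) and 0.14 ± 0.08 without rat 2. Cyba, a subunit of the phagocyte NADPH oxidase, and Ly86, a partner of Toll-like receptors, had 0.48 ± 0.21 and 0.72 ± 0.37, and 0.18 ± 0.08 for both without rat 2 (adjusted p = 0.999).

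In rat 2 the genes of MHC class II, the molecules by which activated microglia and macrophages present antigen to T helper cells, were far above those of any other rat. RT1-Ba, the alpha chain of class II molecule RT1-B, was at 11.96, where the other 6 L-dopa rats lay between 2.55 and 5.48 and the saline rats between 3.89 and 5.56. RT1-Da, the alpha chain of RT1-D, was at 12.502 against 5.34 to 6.54 and 5.40 to 7.11, and Cd74, the invariant chain that escorts class II molecules, at 12.73 against 5.20 to 6.71 and 5.59 to 7.27. The gap to the median of the other L-dopa rats was 6.42 log2 units for RT1-Da and 6.35 for Cd74. For RT1-Ba that median, 4.89, lay below the filter, and no gap is given. Without rat 2 the differences between groups were -0.33 ± 0.44 for RT1-Ba, -0.05 ± 0.26 for RT1-Da and -0.04 ± 0.28 for Cd74.

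Class II genes are known to share a proximal promoter module whose Y box, bound by the factor NF-Y, reads CTGATTGG, and the promoters of the 2 alpha chain genes are printed to show it beside the values above. Each sequence runs 5′ to 3′ along the gene's strand, from 250 bases before to 50 after the start of the gene in RefSeq (GRCr8), at chr20:4515165-4515464 (plus strand) for RT1-Da and chr20:4576807-4577106 (plus strand) for RT1-Ba, with the Y box in capitals:
RT1-Da: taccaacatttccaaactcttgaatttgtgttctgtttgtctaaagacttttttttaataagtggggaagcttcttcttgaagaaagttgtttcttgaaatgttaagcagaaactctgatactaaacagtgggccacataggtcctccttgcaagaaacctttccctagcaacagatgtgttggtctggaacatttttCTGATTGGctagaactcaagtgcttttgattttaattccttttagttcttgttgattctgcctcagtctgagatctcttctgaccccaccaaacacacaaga
RT1-Ba: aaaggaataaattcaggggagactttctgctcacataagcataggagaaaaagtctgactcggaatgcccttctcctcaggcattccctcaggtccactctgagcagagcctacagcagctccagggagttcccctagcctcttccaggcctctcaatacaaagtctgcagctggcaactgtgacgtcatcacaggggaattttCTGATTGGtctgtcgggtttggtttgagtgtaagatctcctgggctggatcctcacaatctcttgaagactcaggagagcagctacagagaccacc
The motif ends 44 bases before the start in RT1-Da and 38 before it in RT1-Ba. On either strand CTGATTGG stands in 3.50% of all 33469 rat promoters of this length. Of the 24 tested interferon and antigen presentation genes 20 have a promoter in that table, and 4 of the 20 hold the motif (RT1-Ba, RT1-Da, RT1-S3 and Psmb9). RT1-Ba and Mx1 are among the 20 only because rat 2 took them over the filter. The core of interferon-stimulated response elements (GAAA, then 2 bases of any kind, then GAAA, on either strand) stands in 3.92% of all promoters and in 12 of those 20, among them Gbp2, B2m, Bst2 and Psmb8. The promoter of Cd74 held neither motif. Of 14 microglial genes with a promoter entry, 1 held the Y box and 2 the interferon motif. The motifs stood together in 26 promoters and shared bases in 0 of them. These are matches of letters and show no binding.

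In the interferon and antigen presentation list, RT1-Ba and Mx1 passed the filter only through rat 2, so their place there was fixed by the filter. Of the other 22 genes, RT1-Da and Cd74 among them, 21 were above all 13 other rats in rat 2, where 1269 of all 10157 genes were. Gbp2, an interferon-gamma-induced GTPase, was at 8.55, and Psmb9, an immunoproteasome subunit, at 8.85, in each case above the other L-dopa rats by 3.37 and 3.08 from their median. B2m, the light chain of class I molecules, was at 12.91, with the other L-dopa rats between 11.16 and 11.48. Against all 55 other arrays of the series, 20 of these 22 genes were highest in rat 2. These 55 include sham rats and arrays from number 38 on, which stand apart from the others.

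Microglial genes were higher in rat 2 as well. All 23 were above the 55 other arrays, 20 of them by more than 1 log2 unit over the highest, while 7.92% of all genes were above those 55. Fcgr3a, an Fc receptor, was at 10.18 against 5.60 to 6.08 in the other L-dopa rats, C1qa, the complement subunit made by microglia, at 12.20 against 8.49 to 9.18, and Aif1 (Iba1) at 10.80 against 7.34 to 7.88. P2ry12 and Tmem119, which mark resting microglia of the brain itself, were at 9.94 against 8.04 to 8.68 and at 8.29 against 6.23 to 6.85. C3, the central complement protein, was at 11.51 against 5.94 to 7.08. It was an extreme of its list: of 14 complement and reactive immune genes, 8 were above the 13 other rats in rat 2. Only 4 of the 14 were above the 55 other arrays. Gfap, the filament protein of reactive astrocytes, was at 10.52 in rat 2, above the other L-dopa rats (9.31 to 10.08), but another rat of the series reached 10.59.

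**Figure D4:**
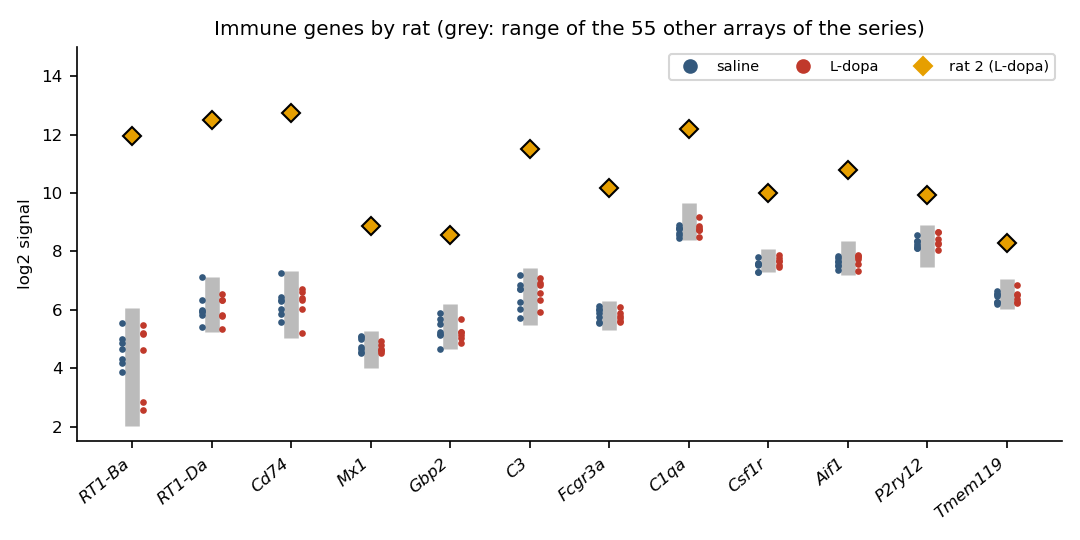
Log2 signals of 12 immune genes in the 14 rats (saline left, L-dopa right, rat 2 as a diamond), with a grey bar for the range of the 55 other arrays of the series. Rat 2 lies above the bar for every gene shown, while its 6 group mates overlap with the saline rats. RT1-Ba and Mx1 lie about or below the filter of 5 in the other rats.

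Genes of projection neurons did not share this. Of the D1, D2 and shared medium spiny neuron genes 0 of 9, 0 of 4 and 0 of 26 were above the other 13 rats. Ribosomal protein genes were the exception outside the immune lists, with 36 of 39 above the 13 other rats, although by a median of only 0.28 over the other L-dopa rats, as were 12 of 37 heat shock and unfolded protein genes. Ependymal markers were low in rat 2, with 4 of 6 below all 13 and a median of -0.74 against its mates. So were those of the choroid plexus, with 3 of 9 below all 13 and a median of -0.80, and 5 of 16 of the leptomeninges lay below all 13, where 1080 of all 10157 genes did. Eya1, a transcriptional regulator in the D1 list, was at 6.39, the lowest of the 14 rats, the other L-dopa rats being at 7.09 to 7.31.

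Other rats stood apart in markers of neighbouring tissues. Rat 7 had the highest choroid plexus markers: Ttr (transthyretin), the abundant secreted product of the choroid plexus, was at 12.59, where the other L-dopa rats lay between 5.49 and 7.49 and the saline rats between 4.73 and 7.46. The choroid plexus list was positive in 9 of 9 genes (median 0.20, and 0.26 without rat 2), its median was -0.01 without rat 7, and Ttr had 1.38 ± 0.83 (adjusted p = 0.995) with rat 7 and 0.51 without it. In saline-conditioned rats the list was positive in 1 of 9 (median -0.21), and Ttr there ranged from 4.28 to 5.37 with L-dopa and from 4.10 to 10.88 with saline.

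Rat 3 had high scores for projection neurons and low ones for GABA interneurons and cortex. A score, the average of a list's signals after the 14-rat mean of each gene was taken off, was 0.31 for shared medium spiny neuron genes in rat 3 and -0.09 to -0.003 in the other L-dopa rats. Its scores for GABA interneurons and cortex were -0.69 and -0.55, that for cholinergic interneurons was 0.27, the highest of the 14 rats, and Pvalb (parvalbumin), which marks fast-spiking interneurons, was at 4.53 against 6.42 to 7.29 in the other L-dopa rats. Saline rats 19 and 21 also had high and low scores of these kinds, with shared medium spiny neuron scores of 0.16 and 0.13 and cortex scores of -0.41 and -0.59, so this spread was found in both groups. Drd2 and Drd1 were highest in rat 3 of all 14 (10.22 and 11.15).

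Hbb (beta globin), the tested gene of the blood list, was at 9.71 to 10.68 in L-dopa rats (median 9.78) and at 10.00 to 10.92 in saline rats (median 10.39). It was below the saline mean in 6 of 7 L-dopa rats, with rat 1 as the exception, and differed by -0.47 ± 0.18 (unadjusted p = 0.012, adjusted p = 0.987), while in saline-conditioned rats it had 0.22 ± 0.18. Markers of astrocytes (5 of 20 positive, median -0.05), oligodendrocytes (13 of 21, median 0.05) and endothelial and mural cells (16 of 25, median 0.02) held no called gene. Among them Gfap had 0.40 ± 0.20, and 0.27 ± 0.19 without rat 2 (adjusted p = 0.999), and Ocln, a tight junction protein of vessel walls, 0.27 ± 0.11 and 0.15 ± 0.09.

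**Figure D5:**
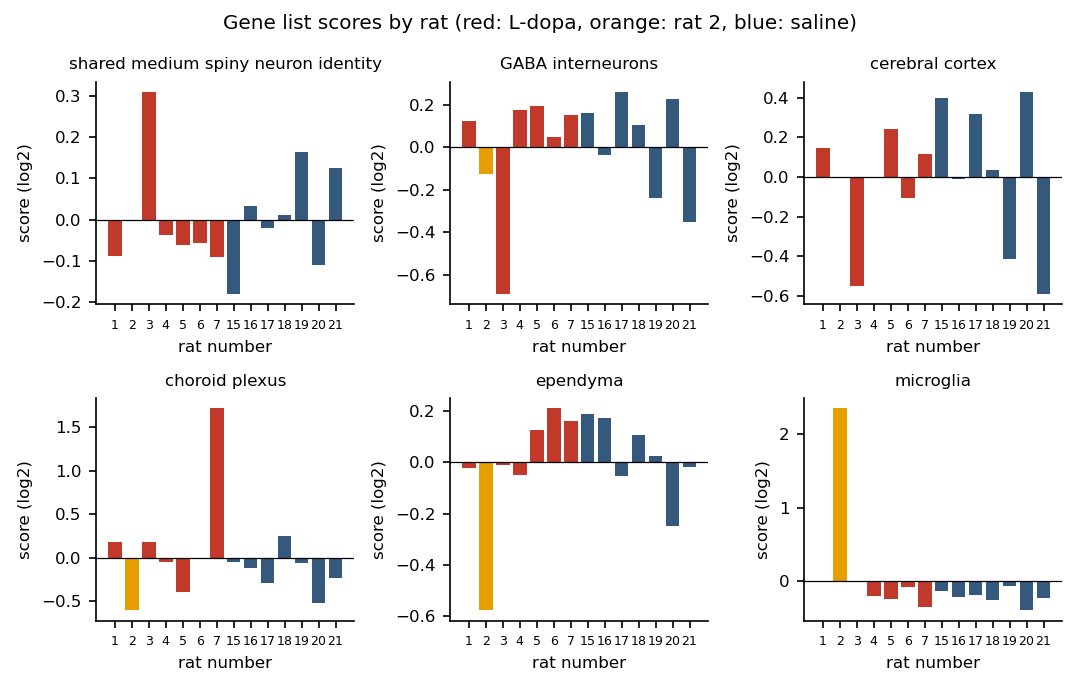
Scores of 6 gene lists (log2, averages of the list's signals after each gene's 14-rat mean was taken off) in each L-dopa rat (1 to 7, with rat 2 in orange) and saline rat (15 to 21). Rat 2 is high for microglia and low for ependyma, rat 7 is high for choroid plexus, and rats 3, 19 and 21 combine high medium spiny neuron with low cortex and GABA interneuron scores.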

How the data were processed

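Total RNA (100 ng) from each rat's dorsal striatum was hybridised to 1 Affymetrix Rat230_2 array, per the labels' protocols. The deposited values are log2 signals made by the authors with MAS5, per the submitters' processing notes; its version and scaling are not given in the sources used here. Unlogged, every array has the same trimmed mean (2% off each end) of about 150.04, so arrays had been scaled to a common level. No normalization was added, and precision is limited by how many arrays there are. Of 31099 probe sets 57 are controls. Of the 18595 tested, 13602 carry 1 gene symbol, 308 several and 4685 none (10157 genes, of which 99.7% were found by gene number in RefSeq). Names come only from probe sets with 1 symbol, and lists take each gene's probe set with the highest mean.

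Group means of the 4 lesioned groups (28 arrays) were fitted with limma 3.58.1 in R 4.3.3 (lmFit, eBayes), with two-sided tests, Benjamini-Hochberg adjustment over the 18595 probe sets and a call at adjusted p under 0.05. SEs and intervals come from that fit. Each array is a separate rat, and rat numbers are those of the labels. Members, lists and tests were chosen with earlier results of these data known, and the alternatives are listed in the closing section. Named are the 12 genes of smallest unadjusted p in each direction, up to 3 members of smallest p per list, the 6 of smallest p for the difference between contrasts, and, where measured, Fosb, Th, Tac1, Pdyn, Penk and the receptor genes Drd1, Drd2 and Drd3. Genes named for rat 2, for lack of overlap or as cell type markers were chosen after their values were seen. The fit was tested on simulated data.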

Additional observations from a re-analysis of the deposited data

Results flagged for a closer look

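The sets examined were a named gene's signal, a list's score or the 3' to 5' gap in 1 group. Of 312 such sets of 7 rats, 45 had a rat set apart by a wide gap from its nearest neighbour. Chance alone gives about 1 in 20 for a single set. The sets are not independent, since lists share genes, the blood score is Hbb alone and 1 rat can stand apart in many. Many were also chosen with their values known, so the count is not a test against that rate. Of the 45, 36 lay in the L-dopa and 9 in the saline group. Rat 2 was the rat apart in 14 of them, in 11 as the highest.

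Among L-dopa rats, rat 2 had the highest log2 signal for C1h19orf12 (7.53), Bst2 (9.30), Cyba (8.76), Csf1r (10.00), Ly86 (9.59), Serping1 (7.05), C3 (11.51) and Ocln (8.07), and the lowest for Eya1 (6.39) and Tmem212 (5.49). Its scores were the highest for microglia (2.35), interferon and antigen presentation (2.18) and complement (0.81), and the lowest for ependyma (-0.58). Rat 3 had the highest Drd2 (10.22) and the lowest Sstr2 (5.33) and Pvalb (4.53). Its scores were the highest for D2 neurons (0.36), shared medium spiny neuron genes (0.31) and dopamine signalling (0.17), and the lowest for neuropeptides (-0.49), GABA interneurons (-0.69) and septum, thalamus and pallidum (-0.18). Rat 7 had the highest Ttr (12.59), Folr1 (7.26) and Enpp2 (11.41), the highest choroid plexus score (1.72) and the lowest Baiap2 (8.97). Rat 5 had the highest Sst (8.46), the lowest Ecel1 (4.43) and the lowest cholinergic interneuron score (-0.42). Rat 1 had the highest Ndufs6 (11.05), Hbb (10.68) and blood score (0.52), and rat 6 the lowest Rfc5 (7.07) and the highest Vcan (7.41).

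Among saline rats, rat 19 had the lowest Eif2a (7.81) and the highest Cry1 (7.83). Rat 21 had the highest Pdyn (10.48) and rat 18 the highest Sncg (7.74). Rat 15 had the lowest Slc10a4 (5.67). Rat 20 had the lowest Htr4 (5.25) and Tmem212 (6.09) and the highest Atp5me (10.31), and rat 17 the lowest glucocorticoid score (-0.21).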

How the results depend on the processing

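The pramipexole-conditioned comparison had 0 calls under every setting run: a fit of the 14 or of all 56 arrays, other filters, quantile normalization, pseudocount 16, array weights, a prior fitted robustly with a trend on intensity, a 3' to 5' covariate and each rat left out. Of 1161 values of 122 named genes under settings other than leaving out a rat, 1151 kept their direction and 10 did not. With the covariate, Adora2a was 0.024, Gpr6 0.069, Tmem212 0.027, Dynlrb2 0.074, Drd1 0.063 and Penk 0.069. With rat 2 out of fit and filter, a setting added after seeing the data, Gpr6 was 0.050, Bst2 -0.024, Tmem212 0.040 and Dynlrb2 0.040. Of 1708 values with 1 rat left out 18 turned, and the ranges were -0.097 to 0.0072 for Adora2a, -0.12 to 0.050 for Gpr6, -0.35 to 0.11 for Pvalb, -0.018 to 0.12 for Sst, -0.047 to 0.19 for Htr4, -0.024 to 0.46 for Bst2, -0.028 to 0.45 for Folr1, -0.18 to 0.040 for Tmem212, -0.15 to 0.040 for Dynlrb2, -0.088 to 0.015 for Drd1 and -0.035 to 0.043 for Penk. The cause was not tested. Of 659 list medians 658 moved by less than 1 SD between rats, a yardstick that rat 2 itself widens: without it the microglia median went from 0.42 to 0.079 and the interferon median from 0.17 to -0.10. That of dopamine terminals was -0.24 with no filter. The saline-conditioned comparison had 1 call with a filter of 7, with quantile normalization or with the covariate, 4 with array weights or pseudocount 16, 0 with trend and robust prior, and 0 to 7 with a rat left out. The test between contrasts had 0 to 1. The 3' to 5' difference was 0.13 for beta-actin alone (exact p = 0.0431) and 0.066 to 0.11 with a rat left out (exact p = 0.0152 to 0.144; lowest without rat 21). No paired analysis was possible because the groups share no replicate numbers.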
